A study of Homo sapiens with 12 samples.

Results

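The RBM genes ("RNA-binding motif") measured here were the 37 of 25268 gene symbols in the deposited expression table that consist of RBM, a number and at most 1 further letter, so that RBMX, the gene overexpressed in the study, the RBMXL genes and the RBMS genes are not among them. The members were chosen by name alone, and 35 of the 37 passed the minimum mean of 0.5 FPKM (fragments counted on a gene, divided by its transcript length and by the library's mapped fragments) that was set over the 12 libraries, as did 14676 genes in all. RBM44 and RBM46, both known from germ cells, did not pass: RBM44 lay between 0.084 and 0.37 FPKM, and RBM46 was listed at 0 to 0.012 FPKM.

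HEK293, an established human embryonic kidney cell line, was transiently transfected with 2 µg of the plasmid pCMV6-HIS-HA-RBMX or with the mock empty vector, whose samples the labels call wild type and HIS, in 3 cultures for each vector. All cultures received cycloheximide, which stops translating ribosomes on their messages, and nuclei were removed before the lysates were separated on sucrose gradients, so that "total" RNA here is that of the lysate without nuclei. Polysomal RNA came from the fractions with several ribosomes on a message, and total RNA was pooled from 20% of every fraction, which gave 12 libraries, 3 for each vector and fraction, each made from 500 ng of RNA. Not every cell takes up a plasmid in a transient transfection, and in such bulk samples fewer cells with a message and less of the message per cell cannot be told apart.

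Most RBM proteins carry an RNA recognition motif, a small fold that contacts single-stranded RNA. They are a family by name rather than by a single function: some are fixed parts of the spliceosome or of the exon junction complex, others choose between alternative exons, guide the m6A methyltransferase to its RNAs, hand nuclear RNAs to the exosome, or work in the nucleolus on ribosome assembly. RBMX, also known as hnRNP G, belongs to the same broad class and is linked to splicing, and the study asked whether it acts on translation. The comparisons below give the level of the other RBM messages in RBMX-overexpressing and control cells in both fractions, and their polysomal against their total level.

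RBMX itself followed the labels: it was at 147, 145 and 108 FPKM in the 3 control total libraries and at 1730.0, 2070.0 and 1460.0 FPKM in the RBMX ones, and in polysomal RNA at 146, 148 and 87.4 against 1170.0, 1330.0 and 1070.0 FPKM. All 7 genes fixed as HEK293 markers had a mean of at least 0.5 FPKM, whereas the 6 markers of other cell types had means of at most 0.234 FPKM. Control replicate 3 stood apart in both fractions. Of the HEK293 markers, KRT8, KRT18, NEFL, NEFM and PAX2 had their lowest control value in it in both fractions, and LHX1 its highest. LIN28B was lowest in it in polysomal RNA only. KRT8 had 68 FPKM in it against 151 and 146 in total RNA, and 63.4 against 164 and 162 in polysomal RNA. The rank correlation of this replicate with the other libraries of its group was the lowest within each control group (median Spearman rho 0.933 in total and 0.925 in polysomal RNA). In it the RBM genes deviated from the mean of the other libraries of the group by a median of 0.277 and 0.303 (log2 scale). In the other 10 libraries this median was 0.0597 to 0.185. In this replicate 19 of the 35 tested RBM genes had their lowest control value in each fraction, while 15 in total and 13 in polysomal RNA had their highest, so that it lay at an end of the control group for nearly all members. The results that rest on it are given with and without it.

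The most abundant member was RBM42, a protein of the U4/U6.U5 particle of the spliceosome, with 158 to 266 FPKM in the 12 libraries. RBM4 (83.4 to 122 FPKM), a regulator of alternative splicing and translation, RBM39 (92.4 to 120 FPKM), a U2AF-like splicing factor and the target of aryl sulfonamide degraders, RBM3 (65.2 to 100.2 FPKM), a small cold-inducible protein found with ribosomes, and RBM34 (59.9 to 95.3 FPKM), a nucleolar protein, followed, and the ranges of neighbours among these 4 overlapped. At the other end, RBM24, a muscle regulator of splicing and mRNA stability, had 2.35 to 4.45 FPKM, and RBM43, a repressor of translation, had 1.56 to 3.85 FPKM. RBM20, the cardiac splicing regulator of titin, stayed at 4.42 to 5.73 FPKM. Within a gene the highest library exceeded the lowest by 1.19-fold (RBM38) to 2.47-fold (RBM43) among the tested members, so the members differed far more from each other than each did between libraries.

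**Figure D1:**
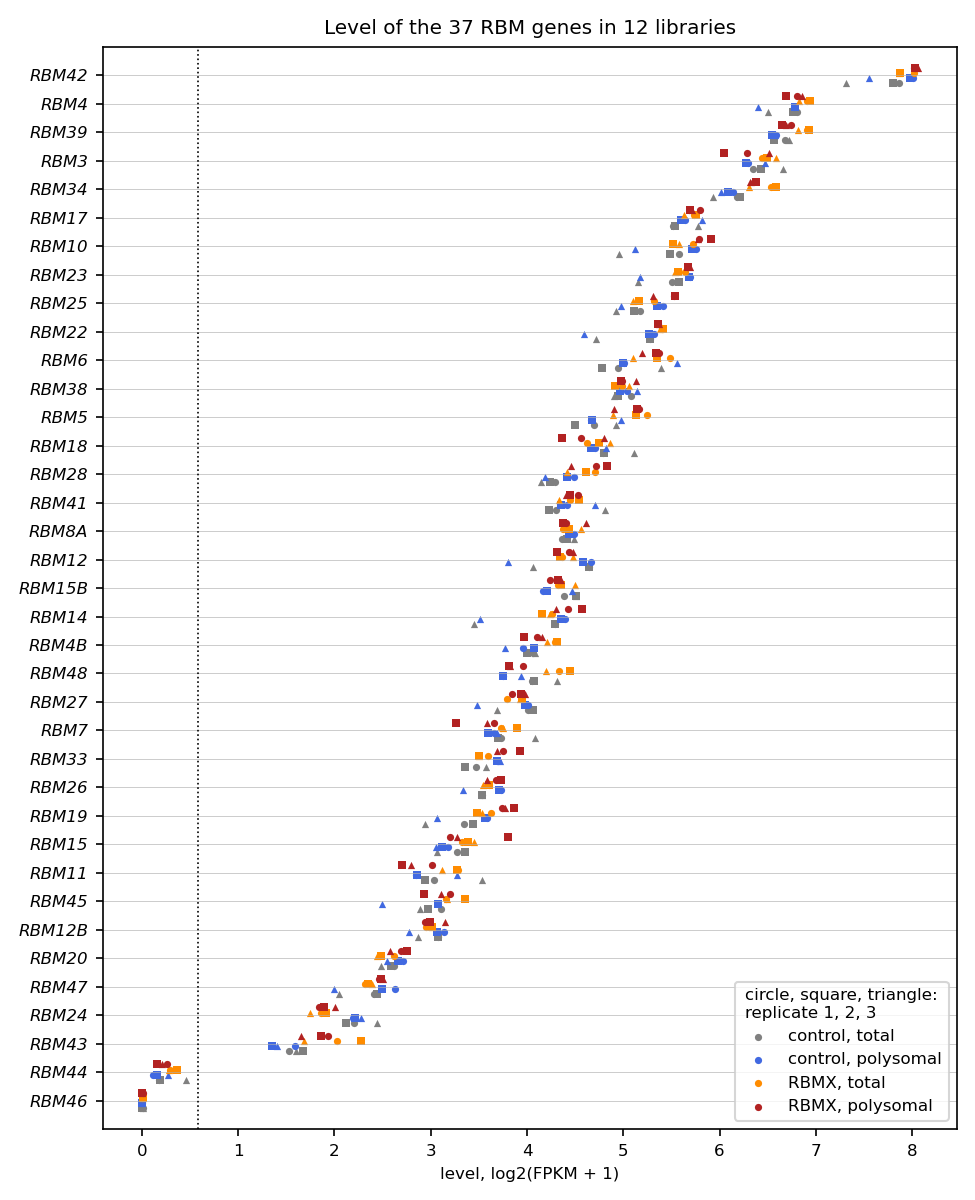
Level of each of the 37 RBM genes on the log2(FPKM + 1) scale, 1 point per library, with the vector and fraction shown by colour and the replicate by shape; genes are in the order of their mean and the dotted line marks 0.5 FPKM. RBM42 lies at the top, RBM44 and RBM46 lie below the line, and the triangles of control replicate 3 often lie away from the other control points.

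Whether RBMX overexpression altered the other RBM messages was first asked in total RNA. No RBM gene passed an adjusted p of 0.05 (limma on log2(FPKM + 1), adjusted over all 14676 genes tested), a threshold that 0.164% of all genes passed, and 8 members had an unadjusted p under 0.05, beside 18.8% of all genes. The lowest adjusted p among the members was 0.176. The values leaned upwards: 26 of 35 members were higher with RBMX and 9 lower, with a median log2 difference of 0.124, against 7300 higher, 7309 lower and a median of 0 over all genes tested. All 3 RBMX libraries lay above all 3 control libraries for 11 members, or below for RBM24 alone, whereas 11.9% of all genes lay above and 15.4% below in this way. Without control replicate 3 the median was 0.0925 and 25 members were higher, against a median of -0.0126 over all genes. The groups then did not overlap for 20 members above and 6 below, beside 20.5% and 26.5% of all genes.

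The 3 nucleolar members, linked to ribosome biogenesis, all lay above without overlap in total RNA, beside the 11.9% of all genes. RBM34 had 71.4, 73.3 and 59.9 FPKM in the control and 91.5, 95.3 and 78.2 FPKM in the RBMX libraries. The groups did not overlap, and the log2 difference was 0.37 (SE 0.11, adjusted p = 0.201 by limma, which does not pass). RBM28, a factor of large ribosomal subunit assembly, had 18.6, 17.9 and 16.7 against 25.2, 23.4 and 20.3 FPKM. Its control libraries lay close together and all RBMX libraries lay above them, by 0.35 on the log2 scale (SE 0.093, adjusted p = 0.181 by limma). RBM19, a protein of pre-rRNA processing, had 9.14, 9.83 and 6.67 against 11.4, 10.2 and 10.6 FPKM. Here control replicate 3 was the low library, and the log2 difference of 0.31 (SE 0.14) was 0.16 without it, while that of RBM34 was 0.28 and that of RBM28 0.31. None of these 3 genes was called with or without this library.

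RBM24 was the only member with all RBMX libraries below all control libraries. It had 3.61, 3.35 and 4.45 FPKM in the control and 2.63, 2.77 and 2.35 FPKM in the RBMX libraries, a log2 difference of -0.42 (SE 0.10, adjusted p = 0.176 by limma). Control replicate 3 was here the highest library, and the difference was -0.32 without it (adjusted p = 0.126). RBM43 had the largest positive difference, with 1.89, 2.19 and 2.03 against 3.09, 3.85 and 2.21 FPKM. Its lowest RBMX library and its highest control library nearly met, and the difference of 0.40 (SE 0.16, adjusted p = 0.260 by limma) was 0.40 without control replicate 3 and 0.26 without RBMX replicate 2, its highest library. Both genes are among the least abundant members, where the added 1 FPKM understates a fold change.

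Among the 6 tested spliceosome members 5 were higher with RBMX and 2 without overlap (11.9% of all genes), with log2 differences from -0.0049 to 0.30. RBM22, which contacts U6 RNA in the activated spliceosome, had 37.9, 37.7 and 25.4 FPKM in control and 41.2, 41.6 and 40.5 FPKM in RBMX cells. Its RBMX libraries lay close together while control replicate 3 lay far below the other 2 control libraries, and the log2 difference of 0.30 (SE 0.16) was 0.12 without that library. RBM42 had 231, 222 and 158 against 259, 234 and 232 FPKM. It showed the same low control library, with a difference of 0.27 (SE 0.16) that was 0.092 without it. The remaining 4, RBM17, RBM25, RBM41 and RBM48, overlapped between the groups.

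Of the 10 tested splicing regulators 8 were higher with RBMX, with a median log2 difference of 0.212. An unadjusted p under 0.05 by limma was found for 4, beside 18.8% of all genes: RBM39, RBM4B and RBM5 above and RBM24 below. RBM39 had 102, 93.4 and 105 against 119.5, 120.4 and 112 FPKM, a difference of 0.23 (SE 0.068, adjusted p = 0.194 by limma) that was 0.26 without control replicate 3. RBM4B, a close paralog of RBM4 encoded beside it, had 15.7, 15.0 and 15.9 against 18.6, 18.8 and 17.5 FPKM and a difference of 0.22 (SE 0.055, adjusted p = 0.176). In both genes the groups were apart and control replicate 3 was the highest control library. RBM4 itself was apart as well, with a difference of 0.20 (SE 0.095) that was 0.11 without control replicate 3. The transcripts of RBM4 and RBM4B were 85.5% identical over 1190 aligned bases, the only pair of members at 80% or more over at least 400 bases, so a share of reads may be assigned to either. RBM5, a regulator of alternative splicing and of apoptosis genes, had 24.9, 21.6 and 29.3 against 37.1, 34.0 and 28.7 FPKM and the second largest positive difference (0.39, SE 0.14, adjusted p = 0.243 by limma). It and its neighbour RBM6 were named after their values were seen: in both, control replicate 3 lay high and within the range of the RBMX libraries, and without it the difference was 0.49 for RBM5 and 0.45 for RBM6, against 0.28 (SE 0.19) with it.

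Of the members outside these groups, RBM45, a neuronal RNA-binding protein found in inclusions, was also apart, with 7.63, 6.83 and 6.42 FPKM in the control and 7.94, 9.24 and 8.02 FPKM in the RBMX libraries. Its log2 difference was 0.24 (SE 0.090, adjusted p = 0.247 by limma), and 0.19 without control replicate 3. RBM14 stood at 0.21 (SE 0.24), with overlap, and at -0.067 without that library. The 3 of the m6A pathway lay between -0.076 and 0.16, the 3 of nuclear RNA decay between -0.044 and 0.054, and RBM8A (Y14), the exon junction subunit, was at 0.033 (SE 0.070) on the log2 scale. Of the nuclear RNA decay members, RBM26 was apart by a small difference of 0.054 (SE 0.050). It had 10.59, 10.57 and 10.56 FPKM in the control and 11.19, 11.18 and 10.68 FPKM in the RBMX libraries. RBM3 and RBM7, which the study lists among the protein partners of RBMX, overlapped between the groups. RBM3 had 80.2, 85.1 and 100.2 FPKM in control and 85.7, 89.2 and 94.9 FPKM in RBMX cells, a log2 difference of 0.029 with a 95% interval of -0.22 to 0.27. RBM7, the RNA-binding subunit of the nuclear exosome targeting complex, had 12.3, 12.0 and 15.9 against 12.3, 13.9 and 12.4 FPKM, a difference of -0.044 with an interval of -0.35 to 0.26. Both signs turned under alternative settings: the RBM3 value was negative without control replicate 1, without RBMX replicate 3 or with quantile normalization, and that of RBM7 positive without control replicate 3.

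**Figure D2:**
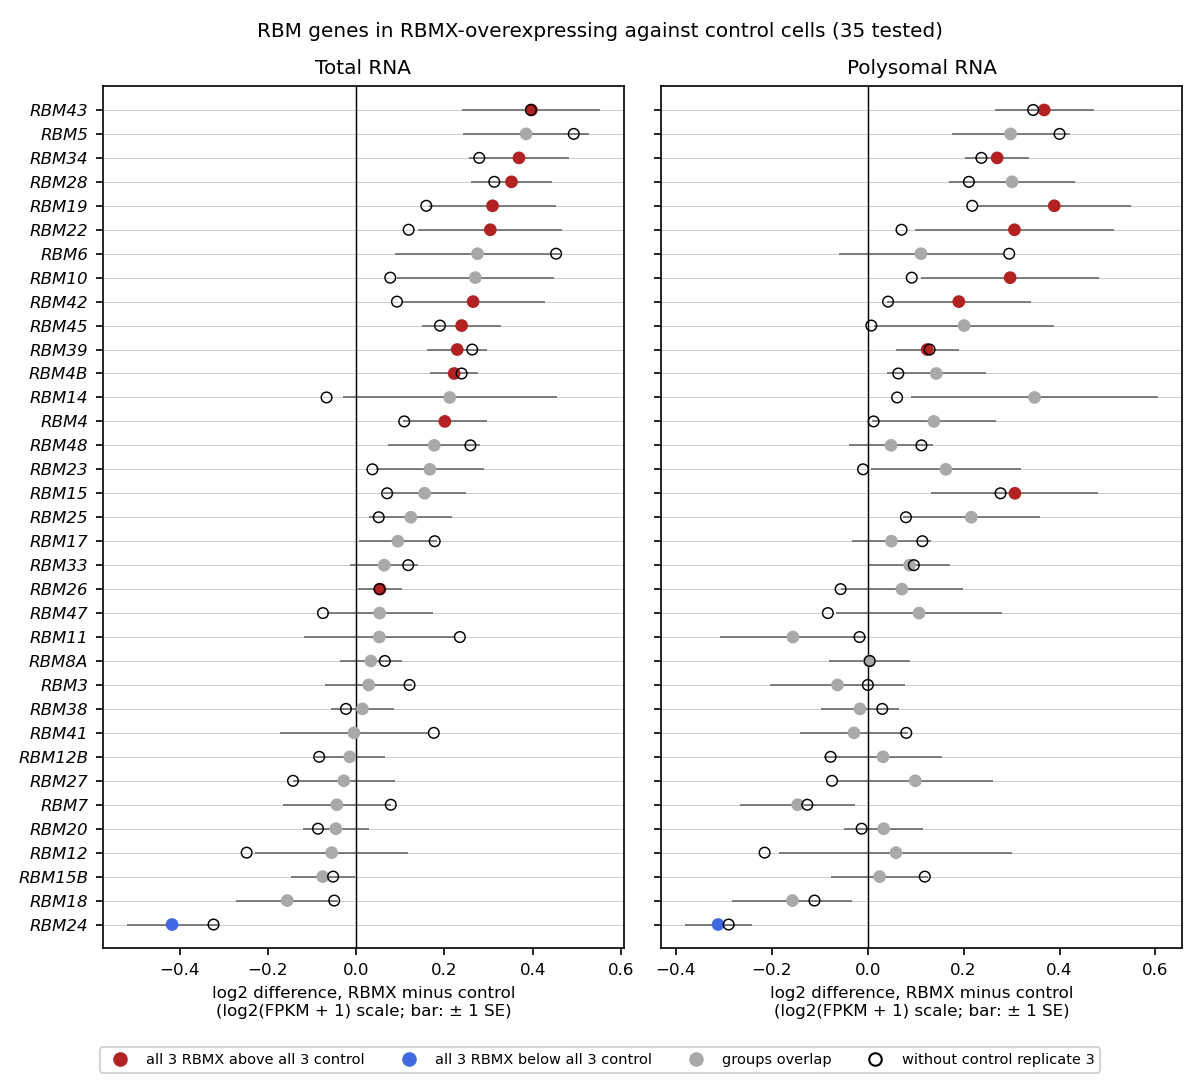
Log2 difference between RBMX-overexpressing and control cells for the 35 tested RBM genes in total RNA (left) and polysomal RNA (right), in the order of the total values, with bars of 1 SE; red and blue points have all 3 RBMX libraries above or below all 3 control libraries, and open circles give the difference without control replicate 3. RBM24 is the 1 blue point in each panel, and for RBM10, RBM19, RBM22 and RBM42 the open circle lies nearer to 0.

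In polysomal RNA the differences between RBMX and control cells were of a like size. Again no RBM gene was called by limma, beside 0.0477% of all genes, and 3 members (RBM24, RBM34 and RBM43) had an unadjusted p under 0.05, beside 11.7% of all genes. The median log2 difference was 0.107, with 28 of 35 members higher, against a median of 0 and 7266 of 14676 genes higher in all. For 8 members all RBMX libraries lay above all control libraries (10.0% of all genes) and for RBM24 below (12.5%). Without control replicate 3 these counts were 13 and 2, beside 19.1% and 26.2% of all genes, and the median was 0.0613. Total and polysomal libraries come from the same cultures, so the comparisons are not independent of each other: 6 members lay above without overlap in both fractions (RBM19, RBM22, RBM34, RBM39, RBM42 and RBM43) and RBM24 below, as did 940 and 1075 of all genes.

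RBM24 had 3.57, 3.66 and 3.83 FPKM in the control and 2.58, 2.73 and 3.03 FPKM in the RBMX polysomal libraries. The groups were apart and the control libraries close together, with a log2 difference of -0.31 (SE 0.070, adjusted p = 0.400 by limma) and of -0.29 without control replicate 3. RBM34 had 69.5, 67.0 and 63.7 against 81.1, 82.4 and 78.5 FPKM. Every RBMX library lay above every control library, by 0.27 on the log2 scale (SE 0.067, adjusted p = 0.400). RBM28, apart in total RNA, overlapped between the groups in polysomal RNA, with 21.51, 20.42 and 17.21 against 25.28, 27.37 and 21.03 FPKM. Its difference there was 0.30 (SE 0.13), and 0.21 without control replicate 3. RBM43 had 2.00, 1.56 and 1.64 against 2.82, 2.62 and 2.15 FPKM, with a difference of 0.37 (SE 0.10, adjusted p = 0.400 by limma) that was 0.34 without control replicate 3.

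Of the other 6 members apart in polysomal RNA, RBM39 hardly moved without control replicate 3 (0.12, SE 0.066, against 0.13). The values of RBM19, RBM22, RBM10 and RBM42 lay nearer to 0 without it. RBM19 had 11.0, 10.9 and 7.35 against 12.3, 13.6 and 12.6 FPKM. Its difference was 0.39 (SE 0.16), and 0.22 without control replicate 3. RBM22 had 39.0, 37.4 and 23.0 against 40.0, 40.2 and 40.3 FPKM, a difference of 0.31 (SE 0.21) that was 0.070 without the low library. RBM10, an X-linked splicing regulator related to RBM5, had 53.0, 51.6 and 33.8 against 54.3, 59.3 and 54.0 FPKM. The difference of 0.30 (SE 0.19) was 0.092 without control replicate 3, and a neighbouring gene on the opposite strand, NDUFB11, shares 16.8% of its exon bases. RBM15, an adaptor of the m6A methyltransferase, had 8.07, 7.67 and 7.33 against 8.21, 13.0 and 8.64 FPKM. It was RBMX replicate 2 that stood high there, with a difference of 0.31 (SE 0.17, adjusted p = 0.498 by limma) that was 0.12 without that library.

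RBM42 had 257, 252 and 187 FPKM in control and 259, 261 and 266 FPKM in RBMX polysomal RNA, a difference of 0.19 (SE 0.15) with and 0.042 without control replicate 3. RBM3 had 77.5, 76.3 and 87.8 against 77.0, 65.2 and 90.7 FPKM and RBM7 11.6, 11.1 and 11.9 against 11.6, 8.59 and 11.0 FPKM. Both overlapped between the groups, with a difference of -0.063 (95% interval -0.41 to 0.29) for RBM3, whose sign turned without control replicate 3 or RBMX replicate 2, and of -0.15 (-0.45 to 0.15) for RBM7. In RBMX replicate 2 both genes had their lowest value of the 12 libraries.

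**Figure D3:**
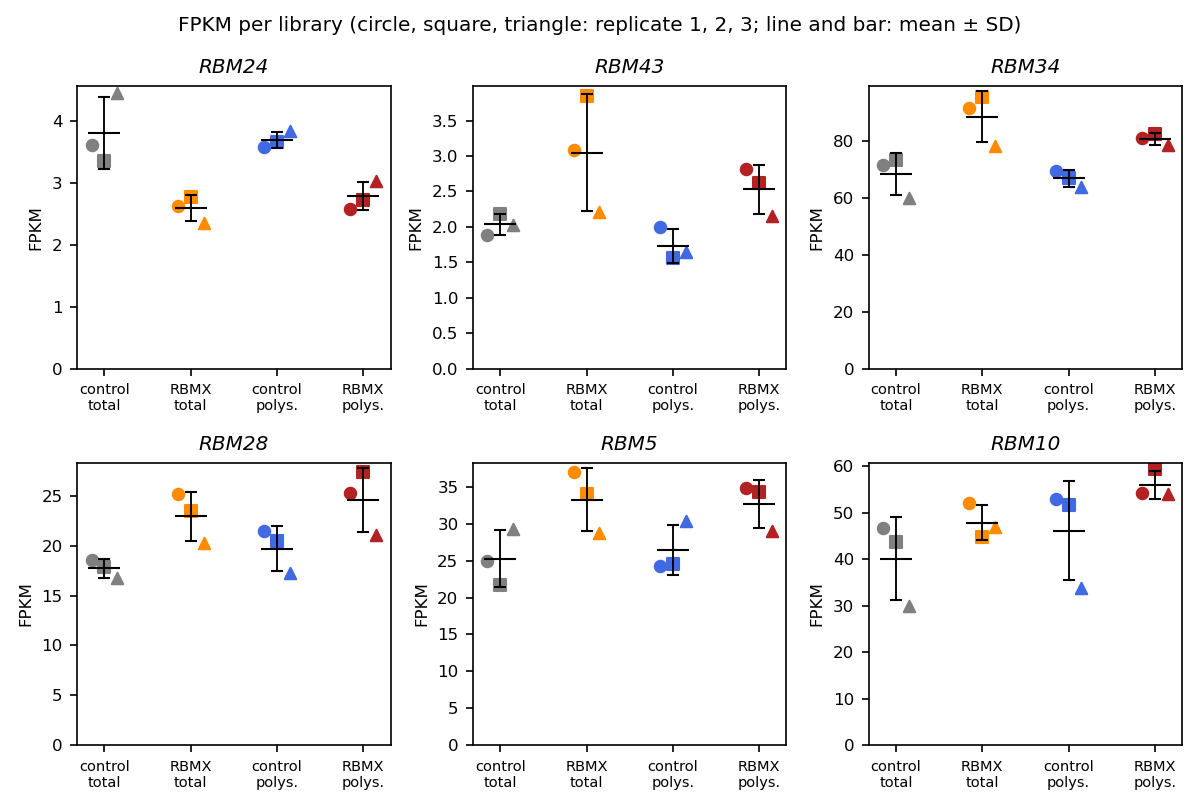
FPKM of 6 RBM genes in each of the 12 libraries, with the mean and SD of each group of 3. RBM24 lies lower and RBM34, RBM28 and RBM43 lie higher in RBMX than in control total RNA, whereas the triangle of control replicate 3 lies high for RBM5 and low for RBM10 in both control groups.

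Whether the effect of RBMX differed between the fractions was tested as an interaction over all 12 libraries. No RBM gene was called, beside 0.0204% of all genes, and 0 members had an unadjusted p under 0.05, beside 0.600% of all genes. The differences between the polysomal and the total effect ranged from -0.208 (RBM11) to 0.152 (RBM15) on the log2 scale, with standard errors of 0.0911 to 0.374, and their median was -0.0238. RBM11, a tissue-restricted splicing regulator related to RBM7, was the 1 member for which the polysomal minus total values of the RBMX cultures (-0.27, -0.57 and -0.33) all lay below those of the control cultures (-0.18, -0.089 and -0.27), and its difference of -0.21 had a 95% interval of -0.74 to 0.32. The cultures were apart in this way for 4.12% of all genes, and in the opposite way for 2.86% of all genes and no member. For RBM3 the interval was -0.49 to 0.31 around -0.091, and for RBM7 -0.49 to 0.29 around -0.10. These intervals come from a fit that did not pair the libraries of a culture. With the culture as a block the SE was 0.1 against 0.236 for RBM11, 0.116 against 0.178 for RBM3, and 0.174 in both fits for RBM7. That fit called 0 members as well.

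The polysomal level of an RBM message against its total level shows how far the message was found with several ribosomes relative to the other messages in the same libraries. Over both vectors 2 members passed an adjusted p of 0.05 by limma, RBM48 below and RBM33 above, beside 6.61% of all genes, and 8 members had an unadjusted p under 0.05, beside 24.1% of all genes. The polysomal value exceeded the total value of the same culture in all 6 cultures for 8 members and lay below it in all 6 for 7 members, beside 16.0% and 16.5% of all genes. With the culture as a block in the fit, 6 members were called (RBM10, RBM11, RBM19, RBM25, RBM33 and RBM48), beside 17.6% of all genes. The number of called members depended on single cultures: leaving out control culture 3 gave 10, and leaving out any 1 of the other 5 gave 0.

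RBM48, a factor of the minor spliceosome that removes the rare U12-type introns, fell by 0.40 on the log2 scale (SE 0.068, adjusted p = 0.0183 by limma). It had 15.7, 15.8 and 18.9 FPKM in control total and 12.5, 12.4 and 14.4 FPKM in control polysomal RNA, and 19.1, 20.9 and 17.3 against 14.5, 13.0 and 13.2 FPKM in RBMX cells. The polysomal libraries of each vector lay below all total libraries of that vector, with log2 differences of -0.30, -0.33 and -0.37 in the control and -0.38, -0.64 and -0.37 in the RBMX cultures. RBMX culture 2 was the farthest. RBM41, the other tested member of the minor spliceosome, was at 0.033 (SE 0.10), with values on both sides of 0. Over 20 alternative settings the difference for RBM48 lay between -0.421 and -0.353 and its adjusted p between 0.00557 and 0.121.

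RBM33, an RNA-binding protein that works with the m6A demethylase ALKBH5, rose in polysomal RNA by 0.24 (SE 0.054, adjusted p = 0.0323 by limma). Its total libraries had 10.1, 9.26 and 10.9 FPKM in control and 11.1, 10.3 and 10.3 FPKM in RBMX cells, and its polysomal libraries 12.0, 11.9 and 12.2 and 12.4, 14.3 and 11.9 FPKM. The fractions did not overlap in either vector. RBM15 and RBM15B, both adaptors of the m6A methyltransferase, went the other way in 5 and in 6 of the 6 cultures, with mean differences of -0.038 (SE 0.10) and -0.14 (SE 0.062), neither of which passed. The adjusted p of RBM33 lay between 0.0205 and 0.155 over 20 settings.

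The further members above 0 in every culture were, in the order of their means, RBM25, RBM10, RBM19, RBM14, RBM20, RBM28 and RBM23. RBM25, a splicing regulator that works with the U1 particle, was higher by 0.23, 0.24 and 0.046 in the control and by 0.21, 0.38 and 0.21 in the RBMX cultures, a mean of 0.22 (SE 0.089, adjusted p = 0.165 by limma), and with the culture block it was called (0.22, SE 0.043, adjusted p = 0.0304). RBM10 was higher by 0.18, 0.23 and 0.17 and 0.061, 0.40 and 0.20, and its adjusted p was 0.395 without and 0.0421 with the block. RBM19 gave 0.24, 0.13 and 0.12 and 0.11, 0.39 and 0.24, with an adjusted p of 0.299 without and 0.0360 with the block. For RBM10 and RBM19 the 2 libraries of control culture 3 were both low, a spread that the block takes out. RBM14, a coactivator found in paraspeckles, gave 0.10, 0.072 and 0.065 and 0.16, 0.42 and 0.067 and was called in neither fit. RBMX culture 2 was the highest of the 6 for each of these 4 genes. RBM14 shares 14.6% and RBM4 17.5% of its exon bases with a readthrough gene, RBM14-RBM4, that the table lists separately. Between RBMX and control cells the readthrough gene stood at 0.73 (SE 0.36) in total and 0.80 (SE 0.19) in polysomal RNA. Its groups were apart in polysomal RNA only, and it was called in neither.

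Below 0 in every culture were, after RBM48, RBM11, RBM7, RBM3, RBM18, RBM39 and RBM15B. RBM11 had 7.21, 6.70 and 10.6 FPKM in control total and 6.22, 6.24 and 8.64 FPKM in control polysomal RNA, which overlap, and 8.74, 8.68 and 7.69 against 7.07, 5.53 and 5.93 FPKM in RBMX cells, which do not. Its mean difference was -0.28 (SE 0.12, adjusted p = 0.176 by limma), and with the culture block it was called (-0.28, SE 0.050, adjusted p = 0.0251). RBM7, its relative in nuclear RNA decay, stood at -0.073, -0.10 and -0.40 in the control and -0.080, -0.64 and -0.16 in the RBMX cultures. The mean of -0.24 (SE 0.087, adjusted p = 0.125) was uneven, with control culture 3 and RBMX culture 2 far below the rest. RBM3 had -0.047, -0.16 and -0.19 and -0.15, -0.45 and -0.066, a mean of -0.18 (SE 0.089, adjusted p = 0.263). RBM18, a small protein with a single recognition motif, had a mean of -0.17 (SE 0.088), and RBM39 one of -0.14 (SE 0.046, adjusted p = 0.0993). The most abundant member, RBM42, was at 0.15 (SE 0.11), higher in 5 of 6 cultures, and the least abundant, RBM43, at -0.17 (SE 0.099), lower in 5 of 6.

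**Figure D4:**
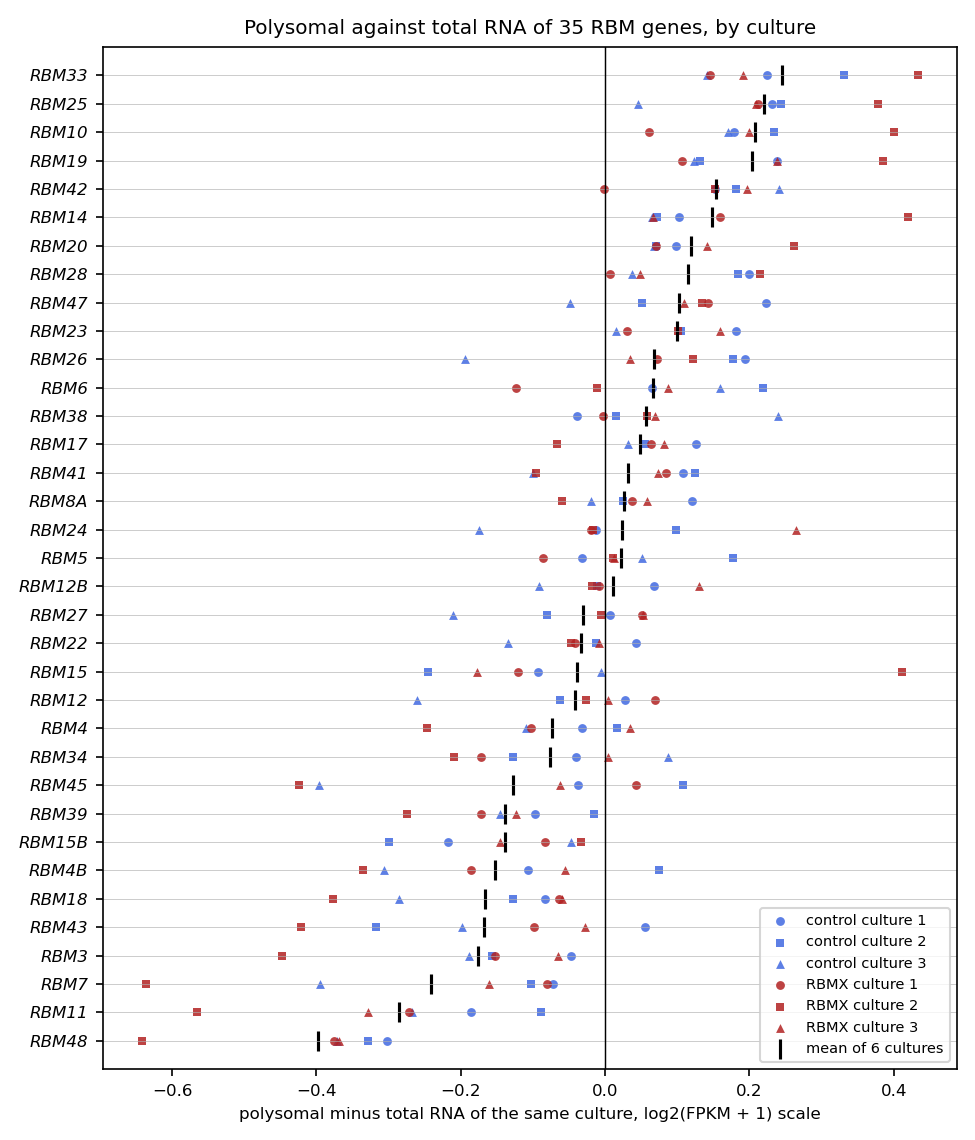
Polysomal minus total RNA of the same culture on the log2(FPKM + 1) scale for the 35 tested RBM genes, with control cultures in blue, RBMX cultures in red, replicates by shape and the mean of 6 cultures as a black line. RBM33 heads and RBM48 closes the order, both with all 6 cultures on one side of 0, and the red square of RBMX culture 2 is often the outermost point.

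Within each vector the fractions were compared on 6 libraries, which are part of the 12 above, without pairing the libraries of a culture. In control cells 0 members were called by limma (0.0818% of all genes) and 2, RBM33 and RBM48, had an unadjusted p under 0.05 (8.04%). The fractions did not overlap for RBM33 above (7.63% of all genes) and for RBM48 and RBM7 below (7.31%). RBM33 stood at 0.23 (SE 0.076), RBM48 at -0.33 (SE 0.10) and RBM7 at -0.19 (SE 0.12). With the culture as a block the SE was 0.0589 for RBM33, 0.0426 for RBM48 and 0.0865 for RBM7. In RBMX cells 0 members were called (1.34% of all genes) and 10 had an unadjusted p under 0.05 (23.0%). The fractions did not overlap for 6 members above (RBM33, RBM19, RBM10, RBM14, RBM47 and RBM23; 14.6% of all genes) and 6 below (RBM48, RBM11, RBM7, RBM4B, RBM39 and RBM22; 16.2%). There RBM33 stood at 0.26 (SE 0.079), RBM48 at -0.46 (SE 0.083, adjusted p = 0.0754) and RBM11 at -0.39 (SE 0.098, adjusted p = 0.130). RBM47, a cofactor of C-to-U RNA editing, was at 0.13 (SE 0.045), RBM4B at -0.19 (SE 0.064) and RBM39 at -0.19 (SE 0.056). The larger counts in RBMX cells are no test of a difference between the vectors, for which the interaction above called no member.

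Coding length, which took no part in the choice of the members, went with the polysomal minus total value. In GENCODE v29 all 35 tested members are protein coding, with coding lengths from 471 bases (RBM3) to 3681 bases (RBM20) in the longest coding transcript. The 11 members under 1200 bases had a median of -0.166 on the log2 scale and 3 of them lay above 0. Over 5074 genes of that length the median was -0.0365, and 39% lay above 0. The 11 members from 1200 to 2400 bases had a median of 0.0485 (0.0039 over 4714 genes), and the 13 members of at least 2400 bases one of 0.0665 with 9 above 0 (0.0976 over 2734 genes, of which 78.8% lay above 0). Across the 35 members the Spearman rho of coding length and this value was 0.553, and across all 12522 coding genes tested it was 0.378. In single cultures it was 0.357 to 0.683 over the members and 0.0353 to 0.506 over all coding genes, with the lowest value over all coding genes in control culture 3. GC content of the transcript gave 0.516 over the members and 0.338 over all coding genes. These values describe genes that share the same libraries, and genes are not independent replicates.

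Of the members at the ends of the order, RBM33 has a coding length of 3510 bases (chromosome 7, 155644451 to 155781485, plus strand, GRCh38), and RBM7 (801 bases, chromosome 11, 114400030 to 114414203, plus strand), RBM11 (843 bases, chromosome 21, 14216130 to 14228372, plus strand) and RBM48 (1128 bases, chromosome 7, 92528773 to 92538005, plus strand) are short. Among the exceptions were RBM15B, with 2670 bases and below 0 in all 6 cultures, and RBM38, a p53-induced regulator of mRNA stability, with 717 bases and a mean of 0.057 (SE 0.053). The means of RBM12, RBM15 and RBM27, of at least 2400 bases, also lay below 0, and those of RBM24 and RBM8A, under 1200 bases, above it. RBM15B and RBM38 were picked after their values were seen.

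**Figure D5:**
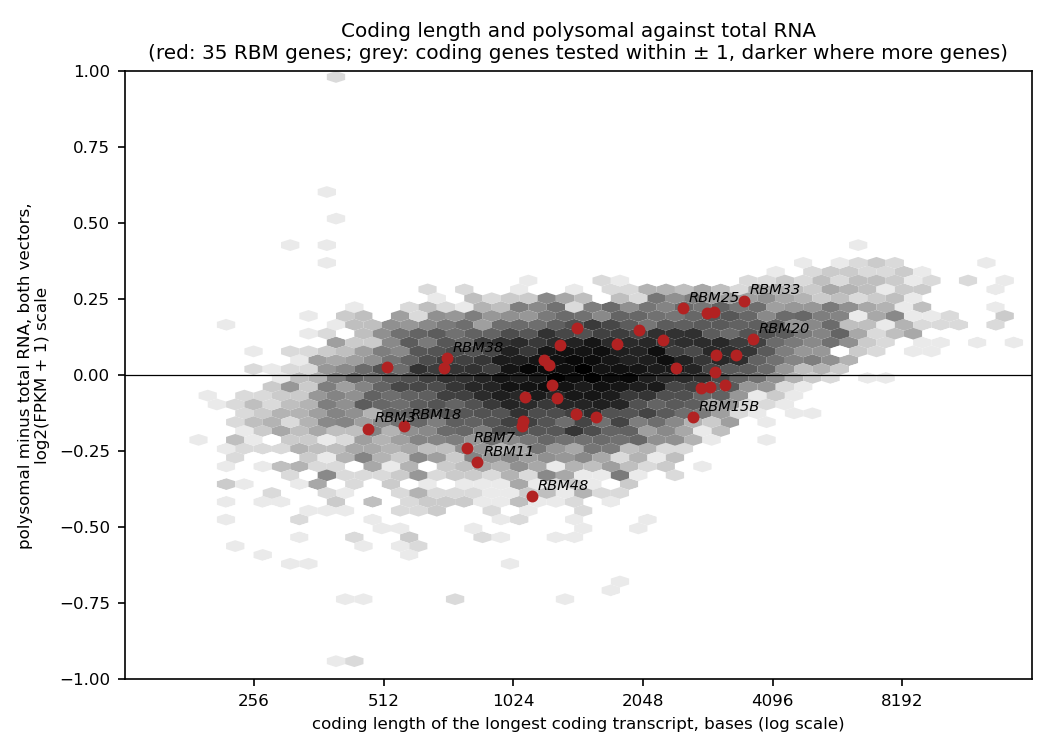
Polysomal minus total RNA over both vectors (log2(FPKM + 1) scale) against the coding length of the longest coding transcript (log axis, bases), with the 35 tested RBM genes in red and the 12522 coding genes tested in grey, of which 21 beyond 1 on the vertical axis are not drawn. Short messages lie more often below 0 and long ones above, in the RBM genes and in the grey field.

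Partner genes of the complexes in which RBM proteins work were read beside the members, as a list of 24 tested genes. None was called between RBMX and control cells: in total RNA 5 lay above without overlap and 1 below (11.9% and 15.4% of all genes), with a median log2 difference of 0.124, and in polysomal RNA 3 lay above and 3 below (10.0% and 12.5%), with a median of 0.106. Without control replicate 3 these medians were 0.088 and 0.00175. The 7 partners of the m6A pathway lay between -0.117 and 0.362 in total RNA, 3 above 0 and 4 below, with a median of -0.00211. METTL3, the catalytic subunit of the methyltransferase, had 30.3, 26.2 and 27.7 FPKM in control and 39.8, 36.8 and 31.7 FPKM in RBMX cells, and METTL14 had 11.1, 11.7 and 9.27 against 14.2, 16.0 and 11.9 FPKM. Both were apart between the groups, with log2 differences of 0.35 (SE 0.10, adjusted p = 0.193 by limma) and 0.36 (SE 0.13, adjusted p = 0.24). In polysomal RNA both overlapped, at 0.279 (SE 0.141) and 0.256 (SE 0.141). CBLL1 lay below without overlap in total (-0.103, SE 0.0502) and polysomal RNA (-0.127, SE 0.0657), and ALKBH5 did so in polysomal RNA (-0.125, SE 0.0694). The paraspeckle partners of RBM14 (NONO, SFPQ and PSPC1) and EIF4A3, the core helicase bound by RBM8A and MAGOH, had their lowest control value in replicate 3 in both fractions, as RBM14 had. For polysomal against total RNA over both vectors 1 of the 24 was called, beside 6.61% of all genes: CBLL1 of the m6A complex, which fell by 0.161 on the log2 scale (SE 0.0362, adjusted p = 0.0345 by limma). CIRBP, the other cold-inducible protein, was at -0.147 (SE 0.0651), beside -0.18 for RBM3, and did not pass. The study names it too among the interactors of RBMX. Between RBMX and control cells it overlapped in total RNA (-0.0663, SE 0.0923). In polysomal RNA it lay below without overlap (-0.27, SE 0.0921, adjusted p = 0.405 by limma). Its polysomal minus total values were lower in all RBMX than in all control cultures (-0.203, SE 0.13), as for 4.12% of all genes.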

How the data were processed

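The authors deposited 1 FPKM value per gene symbol and library (fragments scaled by transcript length and by library size). The submitters' processing notes name CASAVA 1.8, TopHat2 2.0.13, Cufflinks 2.2.1, Cuffnorm and the build hg19 without their order, whereas the study's methods describe counts on another build, so FPKM may have been scaled further between libraries. Every column matched 1 label. Depth in fragments is unknown, since at most 23.5% of genes up to 0.05 FPKM shared 1 step (within 0.05, log2), so no detection limit is given.

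FPKM are not counts, so limma 3.58.1 (R 4.3.3; lmFit, eBayes with an intensity trend) was fitted to log2(FPKM + 1) over all 14676 genes with a mean of at least 0.5, with Benjamini-Hochberg adjustment over all of them and a threshold of 0.05. Each contrast of 2 groups used its 6 libraries, and the contrast over both vectors and the interaction used all 12. The fits were tested on simulated data with independent libraries and planted log2 differences of 1 and 2 in either direction. Those data held no pairing by culture and no planted difference as small as those of the RBM genes, so they cannot speak for these. A log2 difference on this scale understates the change of low genes. An exact permutation test of 3 against 3 libraries cannot give a p under 0.1. The members were taken by name, whereas the lists of roles, partner genes and markers were chosen with earlier results of these data known. Described in full were members past the threshold, up to 5 per direction with the largest difference among those whose groups did not overlap (over both vectors, with 1 sign in every culture; for the interaction, with culture values of the vectors apart), RBM3, RBM7, and the most and the least abundant tested member.

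The labels say that total RNA was pooled from the collected gradient fractions, which pairs the 2 libraries of a culture, although they also mention 2 dishes for total and polysomal extractions. Deviations from the group mean of paired libraries correlated across genes with Spearman rho 0.54, 0.689 and 0.774 in control cultures 1 to 3 and 0.0906, -0.166 and 0.579 in RBMX cultures 1 to 3. The labels do not say whether the 3 cultures of a vector were transfected on separate days, so p-values of RBMX against control measure the spread between these cultures. The other comparisons treated the 2 libraries of a culture as independent, except where the culture block is named. Their p-values measure the spread of libraries within groups, not that of the difference within a culture.

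Coordinates, coding lengths (longest coding transcript) and GC content came from GENCODE 29 on GRCh38, matched by symbol, while the deposited values were made on another build. Transcripts were aligned with BLAST 2.17.0, and plots drawn with Python 3.11.15 and matplotlib 3.10.9. Results were recomputed with each replicate left out, with a block for culture or replicate number, without the intensity trend, with all 12 libraries in 1 fit, after quantile normalization or rescaling by median ratios, with 0.1 as pseudocount, and with minimum means of 0, 0.1 and 1 FPKM. The block with a culture left out, and counts of members apart without control replicate 3, were added after seeing the data.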

Additional observations from a re-analysis of the deposited data

How the results depend on the processing

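No RBM gene was called between RBMX and control cells in either fraction, for polysomal against total RNA within a vector, or for the interaction, under any alternative run. Over all genes the called numbers moved more, from 24 to between 13 and 178 in total and from 7 to between 3 and 126 in polysomal RNA for RBMX against control, from 12 to between 6 and 199 in control cells and from 196 to between 4 and 204 in RBMX cells for polysomal against total RNA, from 970 to between 40 and 2584 over both vectors, and from 3 to between 3 and 7 for the interaction. Polysomal against total RNA over both vectors called 2 RBM genes, 6 with the replicate block by culture, and 0 to 10 with 1 culture left out. The block with 1 culture left out gave 1, 0 and 2 without control replicate 1, 2 and 3 and 4, 5 and 1 without RBMX replicate 1, 2 and 3. The cause was not tested. The block by replicate number across the vectors changed no call of an RBM gene. The labels do not say whether same-numbered libraries of the vectors share more than a number. Their deviations correlated across genes with Spearman rho -0.107 to 0.387 in total and -0.124 to 0.13 in polysomal RNA.

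Of 808 log2 differences of the described members under alternatives, 766 kept their direction and their side of the threshold, 16 lost and 15 gained a call, and 11 turned sign, each with an adjusted p of at least 0.499. RBM3 in total RNA went to -0.0606 with quantile normalization and ranged from -0.0388 to 0.121 with 1 replicate left out. RBM7 in total RNA ranged from -0.114 to 0.0785 and RBM3 in polysomal RNA from -0.18 to 0.055. The interaction of RBM42 was 0.0723 with quantile normalization, and with 1 replicate left out that of RBM3 ranged from -0.17 to 0.021, that of RBM7 from -0.208 to 0.0699 and that of RBM43 from -0.111 to 0.0907. The cause of these turns was not tested. Without control replicate 3 the RBM genes whose groups did not overlap numbered 20 above and 6 below, in place of 11 and 1, in total RNA and 13 and 2, in place of 8 and 1, in polysomal RNA, where 3 against 2 libraries overlap less often by construction.

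Fragment depth is unknown, so the precision of each value is that of 3 libraries per group, given by its standard error.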
